A study of Mus musculus with 2 samples.

Results

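Glycolysis and hypoxia response genes were followed over the 18 clusters of sorted MMTV-PyMT tumor cells. The set held 35 of the 32285 genes in the count matrices. It was chosen by function, with earlier results of these data known. It joined 16 genes that carry glucose to lactate, 3 regulators of that route, and 16 genes known to rise when cells lack oxygen. All 35 were found in the matrices and all passed the filter on low counts. The single-cell RNA libraries came from tumors of 2 Krt8-CreERT/Rosa26-mTmG/MMTV-PyMT mice, 1 library per mouse, with no second condition. In these mice the MMTV promoter drives the polyoma middle T oncogene in mammary epithelium, and the Rosa26-mTmG reporter turns from red to green fluorescent protein (GFP) once Cre has acted. Cre was made under the Krt8 promoter and needed tamoxifen, which both mice received at 150 mg/kg on 6 days in weeks 5 and 6 of age, so only progeny of cells that expressed Krt8 then could be GFP+. Tumors were taken at a volume of 1.5 cm3, between weeks 20 and 25 of age, and DAPI-, CD31-, CD45- and GFP+ cells were sorted and captured with the Chromium 3' kit. Each mouse was the replicate (n = 2), since the cells of 1 tumor share an animal.

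Glycolysis turns glucose into pyruvate in the cytosol, and pyruvate that does not enter the mitochondria is reduced to lactate and exported. Hypoxia-inducible factor (HIF), a dimer of an alpha subunit (Hif1a or Epas1) with Arnt, binds DNA elements with the core ACGTG or GCGTG and raises most glycolysis genes as well as genes for blood vessel growth, acid export and collagen maturation. In oxygen, the prolyl hydroxylases of the Egln family mark the alpha subunit for removal through Vhl. Solid tumors are known for poorly oxygenated areas, and glycolysis genes are also driven by growth signals that do not need a lack of oxygen.

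The authors' annotation placed 3829 cells of mouse 1 and 5330 of mouse 2 in clusters, with a median of 15014 and 9470.0 unique molecular identifiers (UMIs, 1 per captured transcript) per cell. CPM denotes how many of every 1000000 UMIs in a cluster of 1 mouse belonged to a gene or list, and of each pair of values the first is from mouse 1 and the second from mouse 2. Luminal keratin and adhesion genes (8 pan-luminal markers) summed to between 4357 CPM in cluster 15 of mouse 2 and 31555 CPM in cluster 0 of mouse 2. Clusters 1, 5 and 14 were shallow, with a median of 1258 and 1009 UMIs per cell in cluster 1, 2059 and 1638 in cluster 5 and 2908 and 2085 in cluster 14. Cluster 15 held only 17 cells of mouse 2. The libraries shared 9 cell barcodes.

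The summed glycolysis level and the summed hypoxia response level were highest in different clusters (the plot of sums by cluster). Cluster 14 led glycolysis in both mice, at 11551 and 13142 CPM, which was 2.27 and 2.84 times the median cluster of the same mouse. Cluster 8 followed in both, at 10601 and 10571 CPM or 2.08 and 2.29 times the median. Cluster 1 was the lowest in both, at 2475 and 2707 CPM. The other 15 clusters lay between 2866 CPM in cluster 10 of mouse 1 and 7309 CPM in cluster 7 of mouse 1, below every value of clusters 8 and 14. The hypoxia response sum was led by cluster 6 in mouse 1 and by cluster 1 in mouse 2, with 1516 and 1441 CPM in cluster 6 and 1205 and 1641 CPM in cluster 1. Against the median cluster these were 1.59 and 1.56 times in cluster 6 and 1.27 and 1.78 times in cluster 1. The 2 clusters could not be put in order, since their places changed between the mice. Cluster 14 stood at 1053 and 941 CPM, 1.11 and 1.02 times the median, and cluster 8 at 758 and 759 CPM, 0.796 and 0.824 times the median. Cluster 6 in turn had a glycolysis sum of 4648 and 3661 CPM, 0.912 and 0.792 times the median. Over the 18 clusters, the glycolysis sum and the hypoxia response sum had a Spearman correlation of -0.11 in mouse 1 and -0.50 in mouse 2. Between the mice, the correlation was 0.72 for glycolysis and 0.58 for hypoxia response. These are descriptions over clusters that share a library. With the median UMIs per cell, the glycolysis sum had a correlation of 0.33 and 0.32 and the hypoxia response sum of -0.40 and -0.38, whose part in the sums was not tested.

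**Figure D1:**
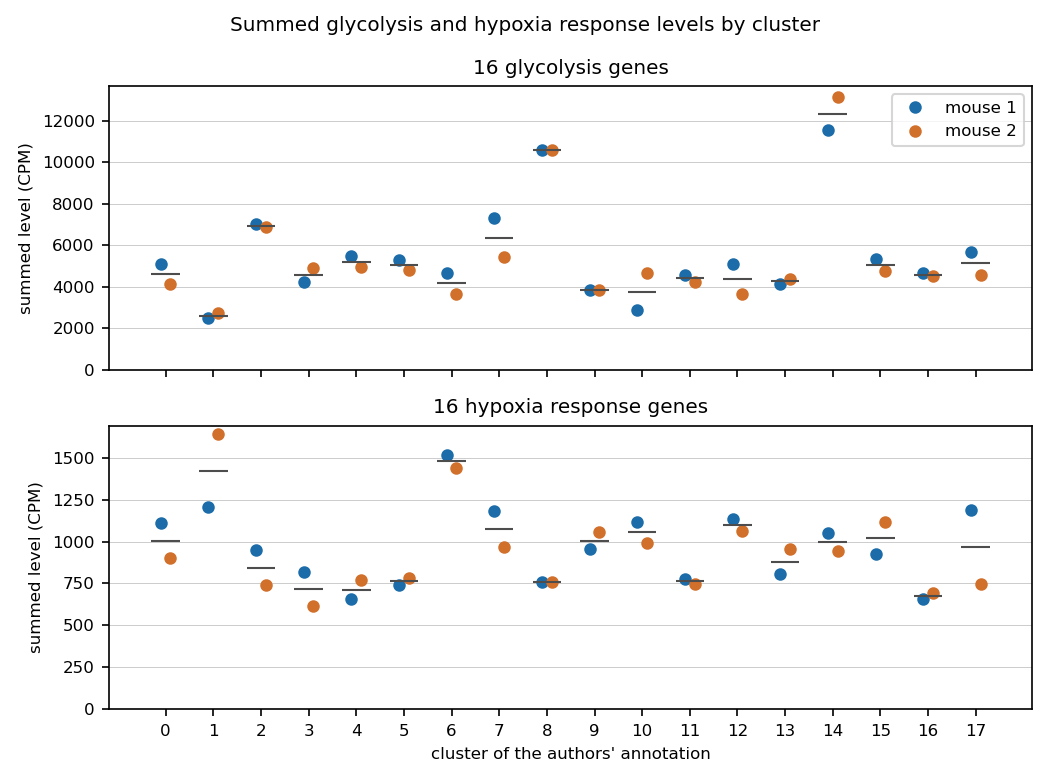
Summed level in CPM of the 16 glycolysis genes (top) and the 16 hypoxia response genes (bottom) in each of the 18 clusters; points are mice and short lines the mean of the 2 mice. Clusters 14 and 8 stand above all others for glycolysis in both mice, at 11551 and 13142 and at 10601 and 10571 CPM, and clusters 6 and 1 lead the hypoxia response.

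**Figure D2:**
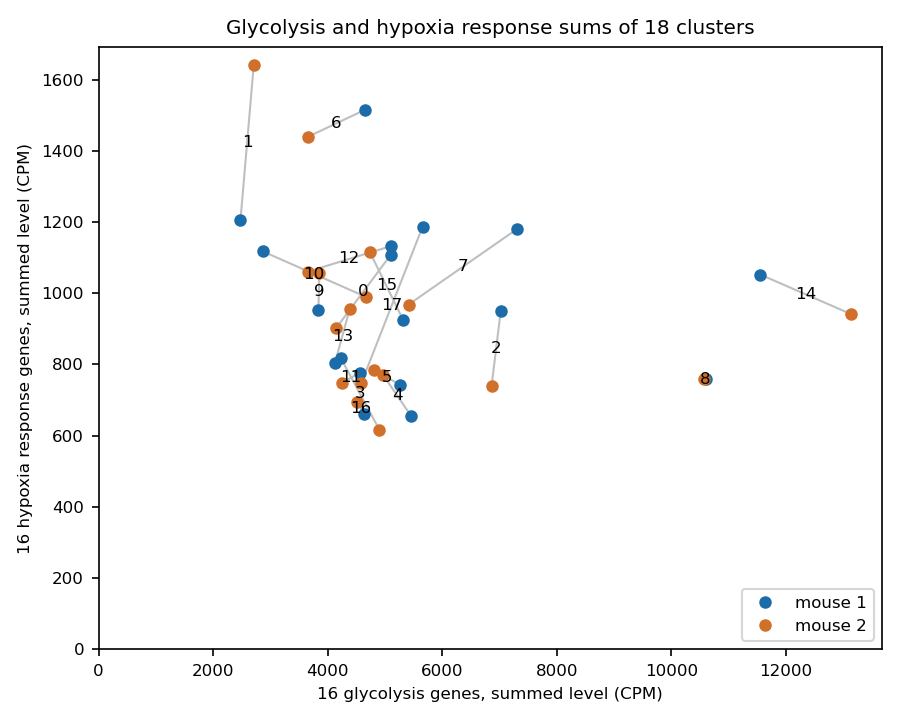
Hypoxia response sum (CPM, vertical) against glycolysis sum (CPM, horizontal) for the 18 clusters; a grey line joins the mice of a cluster and the number names it. The highest glycolysis sums (clusters 8 and 14) lie to the right at 758 and 759 and at 1053 and 941 CPM of hypoxia response genes, and the highest hypoxia response sums (clusters 1 and 6) lie to the left.

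Each gene was then compared between a cluster and the mean of the other 17 with edgeR's quasi-likelihood test on UMIs summed per mouse and cluster, with the mouse as a block, and a gene was called at an adjusted p below 0.05. Clusters had been drawn from the same expression values, so a call says that both mice together show a difference and not that a cluster exists. Of 630 pairs of gene and cluster, 184 were called. These were 46 higher and 43 lower for glycolysis, 7 and 5 for the regulators, and 51 and 32 for hypoxia response. Of all genes tested, the share called higher ran from 0.845% (cluster 5) to 27.7% (cluster 1). The share called lower ran from 0.103% (cluster 17) to 18.2% (cluster 1), and each cluster's shares stand beside its counts below. Set against all other cells summed, in which large clusters weigh more, the calls were 29 higher and 71 lower for glycolysis and 45 higher and 52 lower for hypoxia response. Of the 184 calls, 182 had the same sign in each mouse, the exceptions being Bnip3 in cluster 13 and Adm in cluster 10. With the cluster's own sum of mouse 1 left out 105 calls remained, with that of mouse 2 left out 90, and 69 remained both times.

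Glycolysis genes were raised broadly in clusters 14 and 8. In cluster 14, 9 of the 16 glycolysis genes were higher and 0 lower, and 3 of the 16 hypoxia response genes were higher and 1 lower, where 11% of all genes tested were higher and 7.89% lower. The median log2 fold change of the glycolysis genes was 0.94 there and that of all genes -0.12. The median cell of cluster 14 had 0.683% and 1.18% mitochondrial UMIs, the lowest of the 18 clusters in each mouse. Of the summed UMIs of cluster 14 they took 5.54% and 4.23%. Deep cells weigh more in a sum, and their part in the glycolysis result of cluster 14 was not tested. In cluster 8, 10 of the 16 glycolysis genes were higher and 0 lower, and 3 of the 16 hypoxia response genes were higher and 5 lower, where 18.2% of all genes tested were higher and 13.9% lower. Gapdh, Aldoa, Pgk1, Tpi1, Gpi1, Pgam1 and Ldha were among those higher in both clusters and stayed so with the sum of either mouse left out. In each of these clusters the 3 hypoxia response genes that rose were Bnip3, Bnip3l and Higd1a, whose proteins all sit in mitochondrial membranes. With the sum of either mouse left out, all 3 stayed in cluster 14 and only Bnip3l in cluster 8. Set against all other cells summed, 4 of the 10 glycolysis calls of cluster 8 remained. Vegfa fell in both clusters, and Adm, Car9, Ndrg1 and P4ha2 fell in cluster 8. In cluster 2, 6 of the 16 glycolysis genes were higher and 0 lower, and 3 of the 16 hypoxia response genes were higher and 2 lower, where 13.3% of all genes tested were higher and 9.59% lower. The rises there were Slc2a1, Hk2, Aldoa, Tpi1, Gapdh and Pgk1 with Bnip3, Bnip3l and Kdm3a, and cluster 2 held 47 cells in mouse 1; only Hk2, Aldoa, Gapdh and Pgk1 were also called with the sum of either mouse left out. Proliferation genes (12 genes) were higher for 6 of 12 in cluster 14 and for 11 in cluster 8, and for 0 with 4 lower in cluster 2, and their part in the glycolysis result was not tested. Cluster 16, with the highest proliferation sum (2474 and 2666 CPM), had a glycolysis sum of 4633 and 4516 CPM.

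In cluster 7, 6 of the 16 glycolysis genes were higher and 2 lower, and 3 of the 16 hypoxia response genes were higher and 0 lower, where 7.31% of all genes tested were higher and 2.83% lower. Eno1 and Ldha rose as they did in clusters 8 and 14, and Slc2a1, Hk1, Pfkp and Aldoc, which were called in neither of those, rose with Car9, Car12 and Ndrg1, while Gapdh and Tpi1 fell. With the sum of either mouse left out, Hk1, Pfkp, Car9 and Car12 remained.

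Hypoxia response genes were raised with few glycolysis genes in clusters 6 and 1. In cluster 6, 2 of the 16 glycolysis genes were higher and 3 lower, and 7 of the 16 hypoxia response genes were higher and 1 lower, where 16.2% of all genes tested were higher and 8.48% lower. Vegfa, P4ha1, P4ha2, Ndrg1, Egln1, Ankrd37 and Ddit4 rose and Egln3 fell. Vegfa, P4ha1 and P4ha2 remained with the sum of either mouse left out. Cluster 6 was also where transcripts of other cell types lay: 18.5% and 28.7% of its cells had UMIs of at least 3 markers of a single other type (fibroblast, endothelial, pericyte, macrophage or T and NK cell), and the 10 fibroblast markers summed to 1639.9 and 3211 CPM, the 8 endothelial markers to 28.1 and 419 CPM and the 7 pericyte markers to 27.6 and 307 CPM. Without its cells that had such markers, the fibroblast sum of cluster 6 was 419.6 and 152 CPM and the endothelial sum 4.43 and 0.893 CPM. The hypoxia response sum was then 1492 and 1409 CPM, beside 1516 and 1441 CPM in all its cells. The fibroblast sum left lay above the median over clusters of 5.96 and 6.93 CPM, and its part in the hypoxia response sum was not tested. Vegfa, P4ha1, P4ha2 and Ndrg1 were still called without the cells that had such markers. Egln1 and Ddit4 were no longer called, and Ankrd37 went from 1.44 to -0.41 on the log2 scale (adjusted p = 0.79).

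In cluster 1, 2 of the 16 glycolysis genes were higher and 10 lower, and 9 of the 16 hypoxia response genes were higher and 2 lower, where 27.7% of all genes tested were higher and 18.2% lower. The regulators Pfkfb3, Pfkfb4 and Pdk1 all rose. The median log2 fold change was -1.13 for glycolysis, 1.00 for hypoxia response and 0.20 for all genes. Vegfa, Ankrd37, Ddit4, Kdm3a and Mxi1 rose with the sum of either mouse left out, and so did Hk2. Cells of this cluster were shallow, and only 77 and 76 of 345 and 501 reached 2000 UMIs. After thinning those cells to 2000 UMIs, 7 of the 9 raised hypoxia response genes could be tested and 5 were called (Vegfa, Car12, Ddit4, Kdm3a and Mxi1). The falls of Bnip3l and Higd1a were then no longer called, nor was the regulator Pfkfb3 (log2 fold change 0.52, edgeR adjusted p = 0.51). Without the low-count filter or against all other cells summed, 7 of the 9 rises stayed, and Egln3 and P4ha2 were lost. Immediate early and heat shock genes, which handling of tissue is known to raise, summed to 15889 and 16933 CPM in cluster 1 beside a median of 3775 and 3656 CPM over clusters, and mitochondrial transcripts took 10.3% and 8.96% of its UMIs. Their part in the hypoxia response result was not tested. Cluster 9 had the highest immediate early sum (28202 and 34520.0 CPM) and a hypoxia response sum of 954 and 1058 CPM, and cluster 12 had 14606 and 13762 and 1132 and 1061 CPM.

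For the other clusters, the calls are given as counts. In cluster 0, 2 of the 16 glycolysis genes were higher and 0 lower, and 3 of the 16 hypoxia response genes were higher and 2 lower, where 6.16% of all genes tested were higher and 1.53% lower. In cluster 3, 1 of the 16 glycolysis genes were higher and 1 lower, and 2 of the 16 hypoxia response genes were higher and 4 lower, where 3.65% of all genes tested were higher and 2.88% lower. In cluster 4, 1 of the 16 glycolysis genes were higher and 1 lower, and 0 of the 16 hypoxia response genes were higher and 2 lower, where 9.13% of all genes tested were higher and 4.53% lower. In cluster 5, 0 of the 16 glycolysis genes were higher and 0 lower, and 0 of the 16 hypoxia response genes were higher and 0 lower, where 0.845% of all genes tested were higher and 0.112% lower, and DESeq2 also called none of either list, while 2 genes of each had an unadjusted p under 0.05. In cluster 9, 0 of the 16 glycolysis genes were higher and 5 lower, and 4 of the 16 hypoxia response genes were higher and 1 lower, where 9.56% of all genes tested were higher and 4.85% lower. In cluster 10, 1 of the 16 glycolysis genes were higher and 6 lower, and 3 of the 16 hypoxia response genes were higher and 1 lower, where 11% of all genes tested were higher and 4.78% lower. In cluster 11, 0 of the 16 glycolysis genes were higher and 5 lower, and 1 of the 16 hypoxia response genes were higher and 1 lower, where 13.7% of all genes tested were higher and 9.45% lower. In cluster 12, 1 of the 16 glycolysis genes were higher and 0 lower, and 3 of the 16 hypoxia response genes were higher and 0 lower, where 8.13% of all genes tested were higher and 2.84% lower. In cluster 13, 2 of the 16 glycolysis genes were higher and 5 lower, and 4 of the 16 hypoxia response genes were higher and 2 lower, where 16.4% of all genes tested were higher and 10.3% lower. In cluster 15, 2 of the 16 glycolysis genes were higher and 1 lower, and 2 of the 16 hypoxia response genes were higher and 2 lower, where 7.33% of all genes tested were higher and 3.52% lower. In cluster 16, 1 of the 16 glycolysis genes were higher and 4 lower, and 0 of the 16 hypoxia response genes were higher and 5 lower, where 15.5% of all genes tested were higher and 8.98% lower. In cluster 17, 0 of the 16 glycolysis genes were higher and 0 lower, and 1 of the 16 hypoxia response genes were higher and 1 lower, where 1.89% of all genes tested were higher and 0.103% lower, and for glycolysis DESeq2 also called 0, with 2 genes at an unadjusted p under 0.05. The counts of clusters 8 and 14 for glycolysis, 10 and 9 of 16, and of clusters 1 and 6 for hypoxia response, 9 and 7 of 16, were the largest of the 18. With the sum of either mouse left out, 2 of the 5 glycolysis falls of cluster 9, 0 of the 6 of cluster 10 and 1 of the 5 of cluster 11 remained. In cluster 10, 1 of the 6 remained against all other cells summed, and its glycolysis sum was 0.562 and 1.01 times the median. Cluster 16 had no hypoxia response gene higher.

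**Figure D3:**
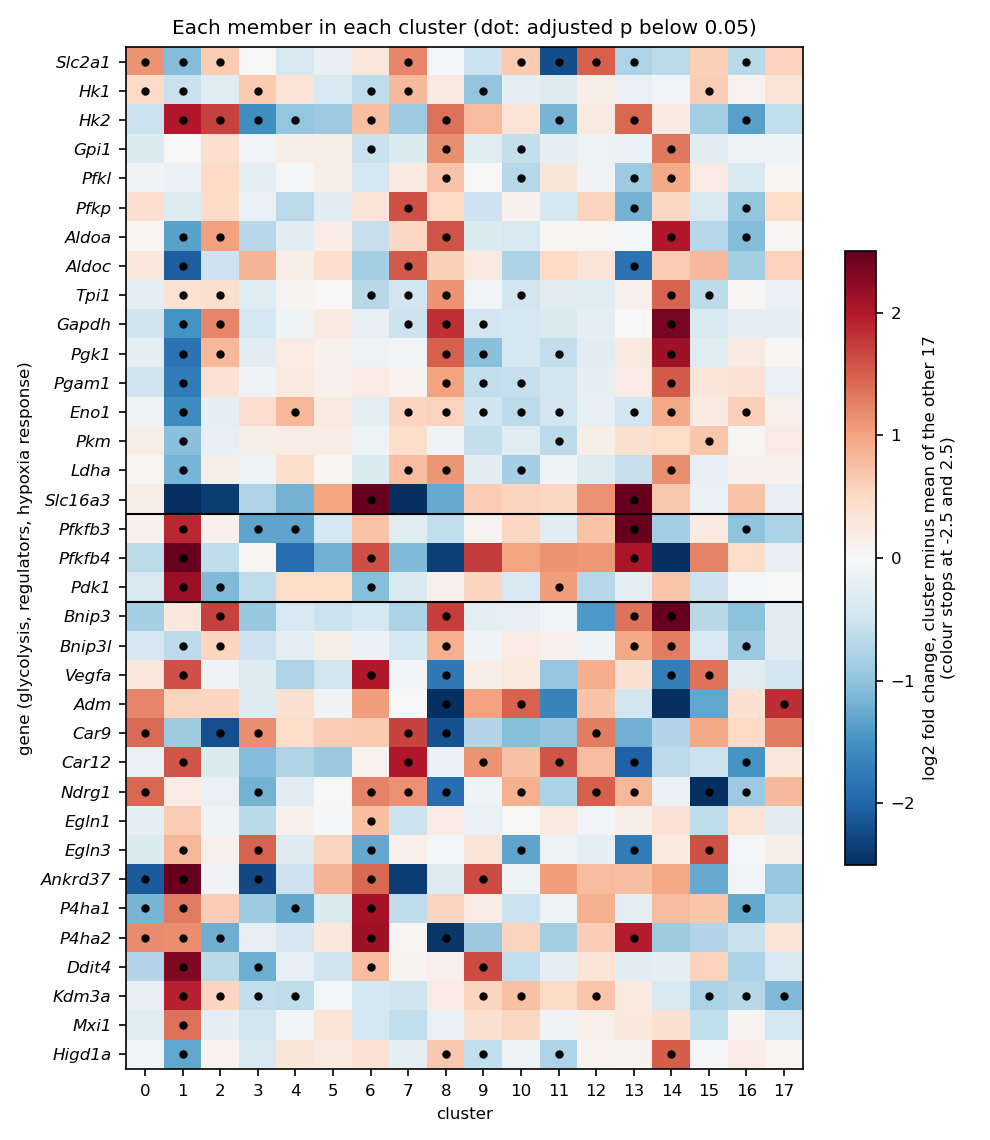
Log2 fold change of each of the 35 genes (rows) in each cluster (columns) against the mean of the other 17; red is higher, blue lower, colour stops at 2.5 either way, and a dot marks an adjusted p below 0.05 in edgeR. Lines part glycolysis genes, regulators and hypoxia response genes. Clusters 8 and 14 have dots on red at 10 and 9 of the 16 glycolysis genes and at Bnip3, Bnip3l and Higd1a, and clusters 1 and 6 have them at 9 and 7 of the 16 hypoxia response genes.

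Glucose uptake and its first step were split over clusters. Slc2a1, the glucose transporter GLUT1, was highest by the mean of the mice in cluster 12 (329 and 426 CPM), cluster 7 (436 and 294 CPM) and cluster 0 (334 and 317 CPM), whose values overlapped, beside a median of 165 and 157 CPM over clusters. In the clusters with the highest glycolysis sums it stood at 132 and 65.7 CPM (cluster 14) and at 171 and 146 CPM (cluster 8), within the range of the other clusters and not called, with log2 fold changes of -0.65 and -0.05. Its lowest level was in cluster 11, at 63.5 and 22.5 CPM. The hexokinases, which trap glucose as its phosphate, were called higher in different clusters. Hk1, the form found in most tissues, was highest in cluster 7 (166 and 180.1 CPM) and rose in clusters 0, 3, 7 and 15. Hk2, the inducible form, was highest in cluster 1 (175 and 148 CPM) and rose in clusters 1, 2, 6, 8 and 13. In cluster 3, Hk1 stood at 146 and 169.8 CPM beside a median of 99.2 and 93, and Hk2 at 15.2 and 18.2 CPM beside a median of 30.6 and 38. The Spearman correlation of the 2 hexokinases over clusters was -0.57 in mouse 1 and -0.51 in mouse 2. Hk2 in cluster 6 (46.9 and 106 CPM) was no longer called without cells that held transcripts of other cell types.

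Most enzymes of the middle of the route were highest in clusters 14 and 8. Gapdh, which oxidises glyceraldehyde phosphate, reached 3817 and 5102 CPM in cluster 14, 3176 and 3778 in cluster 8 and 2304 and 2164 in cluster 2, and no other cluster exceeded 1186 CPM in either mouse. In cluster 14 its change was 2.37 on the log2 scale (SE 0.12, adjusted p = 1.6e-12) by edgeR. Aldoa, the main aldolase, stood at 2169 and 2425 CPM in cluster 14 and 2128 and 1737 in cluster 8, and its median was 653 and 637. Pgk1, which makes the first ATP of the route, stood at 758 and 742 CPM in cluster 14, with a change of 2.11 on the log2 scale (SE 0.12, adjusted p = 5.2e-11), and at 539.7 and 564 in cluster 8. Tpi1, the triose phosphate isomerase, reached 839 and 702 and Pgam1, the phosphoglycerate mutase, 419.6 and 489 CPM in cluster 14. Gpi1, which isomerises glucose phosphate, was nearly equal in clusters 14 and 8 (377 and 350.2, and 365 and 359 CPM). For these 6 genes every value of clusters 14 and 8 lay above every value of the other 16 clusters. Pfkl, the liver-type phosphofructokinase, was higher in clusters 8 and 14 with smaller log2 fold changes of 0.71 and 0.95. The platelet-type Pfkp was called higher in cluster 7 alone, at 247 and 211 CPM, and lower in clusters 13 and 16. Aldoc, the aldolase known from brain, was also called higher in cluster 7 alone, at 1194 and 399 CPM, while mouse 2 had more in cluster 3 (313 and 519.6 CPM), and was higher in mouse 1 than in mouse 2 at the median of clusters (434 and 198 CPM).

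In the last steps, Eno1, the enolase, was called in 10 contrasts, higher in clusters 4, 7, 8, 14 and 16 and lower in 1, 9, 10, 11 and 13. It stood at 383 and 444 CPM in cluster 4 and at 88.4 and 82.4 in cluster 1. A near copy, Eno1b, held 198 and 223 UMIs of its own beside the 15373 and 15447 of Eno1, and reads shared between these copies cannot be told apart. Pkm, the pyruvate kinase, was called in few clusters, with a rise in cluster 15 (1041 and 1052 CPM) and falls in clusters 1 and 11. Ldha, which reduces pyruvate to lactate, was highest in cluster 8 (1149 and 1273 CPM), cluster 14 (1025 and 1259.5) and cluster 7 (1053 and 847), and the 3 clusters overlapped. Slc16a3, the lactate exporter MCT4, was nearly absent outside clusters 6 and 13, where it stood at 10.3 and 11.9 CPM in cluster 6 and 7.38 and 17 CPM in cluster 13 (35 and 19 UMIs in cluster 6, 9 and 41 in cluster 13). In every other cluster it was at or below 2.86 CPM, and no fold is given against clusters at 0. Cluster 14, with the most Gapdh, held 1.48 and 0 CPM of it.

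The regulators were highest outside the clusters that led glycolysis. Pfkfb3, which makes the activator of phosphofructokinase, was highest in cluster 13, at 67.2 and 132 CPM with a change of 2.58 on the log2 scale (SE 0.22, adjusted p = 3.2e-09), followed by cluster 1 at 52.3 and 82.4 CPM. Cluster 14 had 10.4 and 9.95 CPM. Its relative Pfkfb4 was sparse, with 14.4 and 20.6 CPM in cluster 1 (8 and 15 UMIs) and 0 in cluster 14 of both mice, a count that allows up to 4.45 and 5.97 CPM (3 UMIs of these shallow sums). Pdk1 is a known HIF target and a kinase that limits the use of pyruvate inside mitochondria. Pdk1 stood at 63.1 and 59.1 CPM in cluster 1 and 37.9 and 27.7 in cluster 11 beside a median of 12.1 and 12.5. Over clusters, Pfkfb3 and Pfkfb4 had Spearman correlations with the glycolysis sum of -0.50 and -0.71, and of -0.72 and -0.74.

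Among hypoxia response genes, the secreted factors were lowest in the clusters that led glycolysis. Vegfa, the growth factor of blood vessels, reached 512 and 369 CPM in cluster 6, where its change was 2.01 on the log2 scale (SE 0.28, adjusted p = 4.4e-06) by edgeR. Cluster 1 (283 and 387 CPM) and cluster 15 (205 and 404 CPM, the latter from 17 cells in mouse 2) lay below cluster 6 in mouse 1 and above it in mouse 2, and the median was 120.2 and 121 CPM. Clusters 8 and 14 were the lowest, with 24.6 and 48.9 CPM in cluster 8 and 50.4 and 15.9 CPM in cluster 14. Adm, a vasodilator peptide, differed between the mice: it led in cluster 10 of mouse 1 (233 and 28.5 CPM) and in cluster 17 (181 and 90.9 CPM) of mouse 2, and was lowest in clusters 8 and 14 (9.63 and 4.11, and 10.4 and 1.99 CPM). The call of Adm in cluster 10 came from mouse 1 alone, and without that sum the log2 fold change was -0.18.

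The genes of mitochondrial membranes were highest by the mean of the mice in cluster 14, which also led glycolysis, and in each mouse only Higd1a was. Bnip3, a receptor for the removal of mitochondria, stood at 78.6 and 97.5 CPM in cluster 14, where its change was 2.80 on the log2 scale (SE 0.41, adjusted p = 2.5e-05), at 80.8 and 22.9 in cluster 2 and at 62 and 35.2 in cluster 8, beside a median of 12.7 and 12.8. Its call in cluster 13 came from mouse 2 alone (8.20 and 54.6 CPM), and without that sum the log2 fold change was -0.93. Bnip3l, of the same family, reached 132 and 237 CPM in cluster 14 and 134 and 161 in cluster 13, which was higher in mouse 1, and Higd1a, a small protein of the inner membrane, reached 286 and 322 CPM in cluster 14. Of the 16 hypoxia response genes, Higd1a had the highest Spearman correlation with the glycolysis sum over clusters in each mouse, 0.79 and 0.34, and Bnip3l followed at 0.33 and 0.30. Vegfa had -0.45 and -0.58.

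The carbonic anhydrases, which handle acid at the cell surface, met in cluster 7. Car9, a gene much used as a marker of hypoxia, was highest there at 86.9 and 71 CPM and Car12 at 166 and 200.1 CPM, with changes of 1.70 on the log2 scale (SE 0.32, adjusted p = 0.001) and 1.99 on the log2 scale (SE 0.27, adjusted p = 2.5e-05). Elsewhere they parted: Car9 also rose in clusters 0, 3 and 12, and Car12 in clusters 1, 9 and 11, and their Spearman correlation over clusters was 0.12 and -0.04. By the mean of the mice Car9 was lowest in cluster 8, at 8.77 and 3.86 CPM. The collagen prolyl hydroxylases P4ha1 and P4ha2 were both highest in cluster 6. P4ha1 stood there at 60.4 and 69.8 CPM beside a median of 13.9 and 16.4, and P4ha2 at 36.1 and 32.7 CPM beside a median of 8.71 and 7.41. P4ha1 changed there by 2.07 on the log2 scale (SE 0.25, adjusted p = 4.2e-07) and P4ha2 by 2.13 on the log2 scale (SE 0.27, adjusted p = 1.1e-06). In cluster 0 they were called in opposite directions (-1.16 and 1.18), and in cluster 13 P4ha2 rose to 28.7 and 27.3 CPM while P4ha1 stood at 8.20 and 17.

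Of the genes that sense or limit HIF, Egln1, the main oxygen sensor, was called in cluster 6 alone (36.1 and 31.4 CPM). That call was lost without cells that held transcripts of other cell types, and in mouse 1 Egln1 was highest in cluster 14 (38.6 CPM). Its order of clusters had a Spearman correlation of 0.09 between the mice, the lowest of the 35. Egln3, which HIF itself raises, was higher in clusters 1, 3 and 15 (267 and 103 CPM in cluster 3) and lower in clusters 6, 10 and 13, with 56 and 10.1 CPM in cluster 6. Its call in cluster 1 was lost with thinned cells and without the low-count filter. Egln3 was lower in mouse 2 than in mouse 1 at the median of clusters (104 and 37.3 CPM). Ankrd37, a small HIF target of unknown role, was sparse, with 9.02 and 13.7 CPM in cluster 1 and a median of 1.27 and 2.65. Ddit4, Kdm3a and Mxi1 were highest in cluster 1 in each mouse. Ddit4, an inhibitor of mTORC1 that other stresses also raise, stood at 233 and 279 CPM there, followed by cluster 9 at 111 and 248. Kdm3a, a histone demethylase, reached 74 and 94.8 CPM in cluster 1, with a change of 1.92 on the log2 scale (SE 0.16, adjusted p = 7.2e-10), and no other value exceeded 49 CPM. Mxi1, a Myc antagonist, stood at 55.9 and 75.5 CPM and was called in no other cluster. Ndrg1, a stress-responsive gene of differentiating epithelium, had another order by the mean of the mice. It led in cluster 0 (361 and 280.1 CPM), cluster 12 (317 and 293) and cluster 6 (278 and 319), stood at 115 and 176 in cluster 1, and was lowest in cluster 15 (33.8 and 3.39 CPM) and cluster 8 (48.6 and 27.3 CPM).

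**Figure D4:**
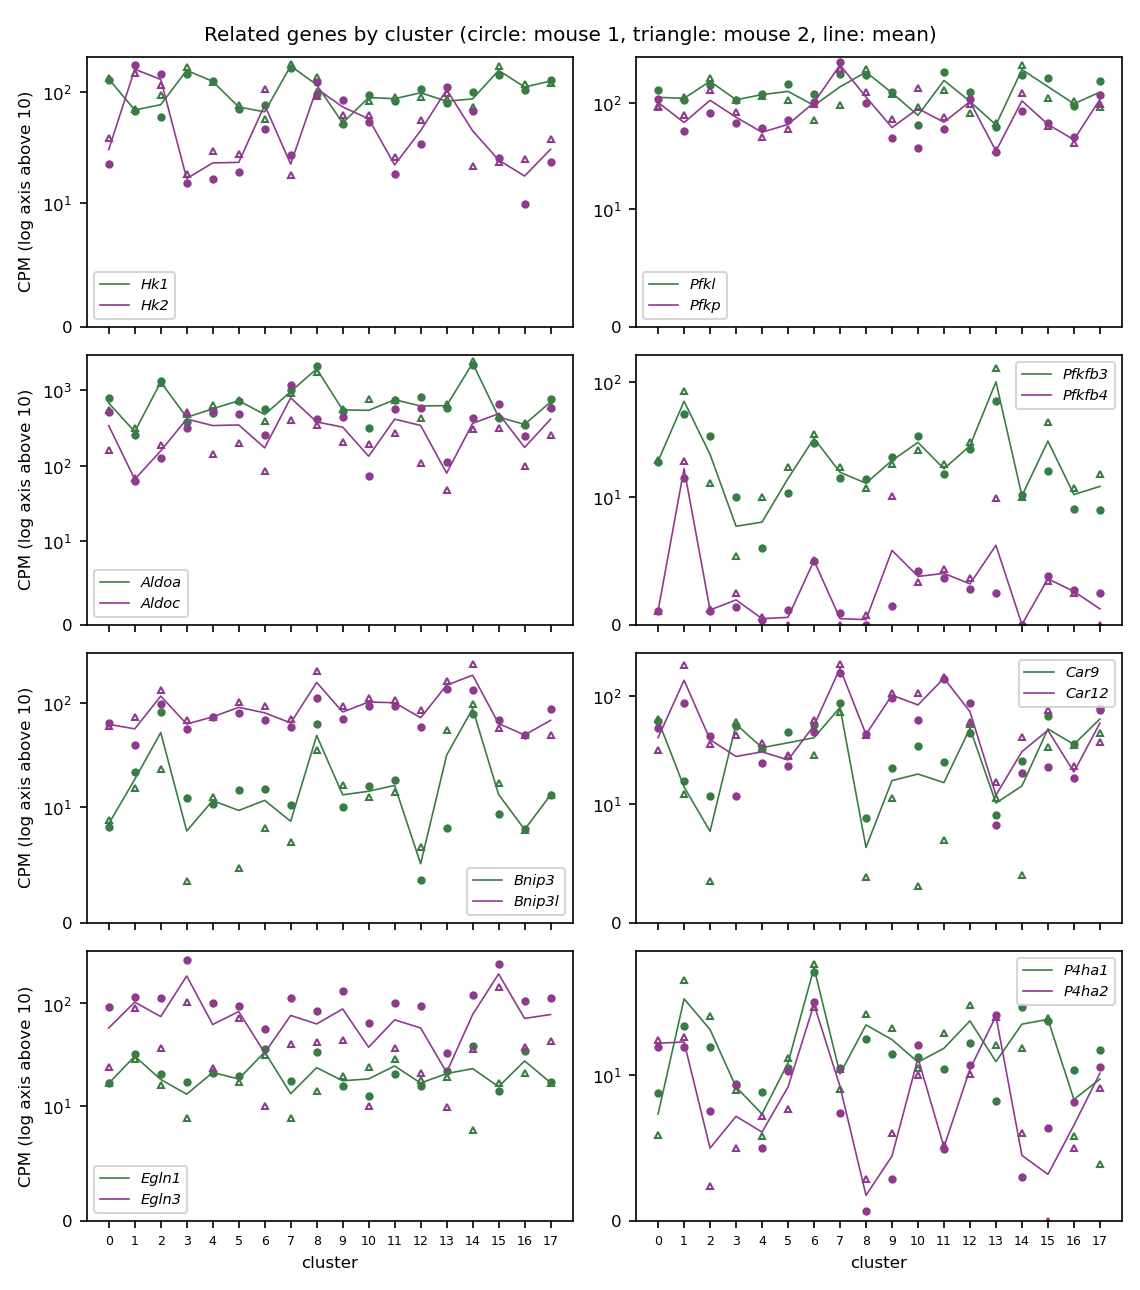
Level in CPM (log axis above 10) by cluster for 8 pairs of related genes; circles are mouse 1, triangles mouse 2 and lines the mean. Hk1 and Hk2 are high in different clusters, Pfkp peaks in cluster 7 in each mouse and Aldoc there in mouse 1 and in cluster 3 in mouse 2, and P4ha1 and P4ha2 peak in cluster 6.

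The promoters of the genes called in most contrasts with the same sign in each mouse (Eno1, Kdm3a, Slc2a1, Hk2 and Tpi1; Ndrg1 had no entry) show whether the HIF core lies near their start. The 250 bases before the most upstream RefSeq start (GRCm38.p6) were searched for ACGTG and GCGTG and, for the other strand, CACGT and CACGC; overlapping matches, as in a palindrome, count once each. Matches are in capitals and each sequence runs 5′ to 3′ on the strand of the gene.
Eno1 (chr4:150236458-150236707, + strand): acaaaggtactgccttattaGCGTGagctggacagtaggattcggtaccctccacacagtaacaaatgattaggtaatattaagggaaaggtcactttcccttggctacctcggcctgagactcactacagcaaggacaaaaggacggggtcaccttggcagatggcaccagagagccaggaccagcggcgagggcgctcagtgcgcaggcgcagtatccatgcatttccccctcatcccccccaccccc
Kdm3a (chr6:71632918-71633167, - strand): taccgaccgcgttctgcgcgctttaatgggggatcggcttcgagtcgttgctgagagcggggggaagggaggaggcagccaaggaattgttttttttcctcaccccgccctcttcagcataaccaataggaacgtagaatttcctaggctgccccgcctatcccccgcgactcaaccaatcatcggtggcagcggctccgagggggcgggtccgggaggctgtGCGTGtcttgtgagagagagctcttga
Slc2a1 (chr4:119108495-119108744, + strand): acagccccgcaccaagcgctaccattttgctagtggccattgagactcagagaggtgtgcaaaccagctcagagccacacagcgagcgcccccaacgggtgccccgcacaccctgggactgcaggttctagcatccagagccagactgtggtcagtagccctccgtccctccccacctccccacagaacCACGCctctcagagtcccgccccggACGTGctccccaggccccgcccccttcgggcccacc
Hk2 (chr6:82774455-82774704, - strand): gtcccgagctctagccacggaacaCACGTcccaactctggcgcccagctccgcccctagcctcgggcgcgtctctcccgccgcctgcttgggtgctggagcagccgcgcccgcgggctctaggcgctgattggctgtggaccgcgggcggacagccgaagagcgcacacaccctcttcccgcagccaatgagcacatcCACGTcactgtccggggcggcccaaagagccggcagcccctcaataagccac
Tpi1 (chr6:124814159-124814408, - strand): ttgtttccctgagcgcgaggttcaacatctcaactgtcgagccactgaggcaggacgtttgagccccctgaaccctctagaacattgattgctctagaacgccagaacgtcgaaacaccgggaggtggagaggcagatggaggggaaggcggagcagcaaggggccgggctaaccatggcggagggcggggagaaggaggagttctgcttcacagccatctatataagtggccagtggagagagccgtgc

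Slc2a1 held matches that begin 61 and 36 bases before the RefSeq start, and Hk2 at 226 and 52. For Kdm3a the match began at 27 and for Eno1 at 230, and Tpi1 held none in this window. In the GENCODE annotation Slc2a1, Kdm3a and Tpi1 start at 119108711, 71632990 and 124814296, inside their windows. Part of each of these windows, with the match of Kdm3a, thus lies within the gene by that annotation. Of the members, 33 had a window. A match was found in 11 of 16 glycolysis genes (68.8%), 11 of 14 hypoxia response genes (78.6%) and 3 of 3 regulators, against 38.6% of all 27025 genes with a window. The median GC content was 61% and 63.6% in the 2 lists and 52% over all genes, and its part in these shares was not tested. Matches were found in genes of either pattern. Gapdh, Pgk1 and Ldha, high in clusters 8 and 14, had 2, 2 and 5, P4ha1 and P4ha2, high in cluster 6, had 3 each, and Aldoa, Gpi1, Tpi1 and Vegfa had none in this window.

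Cluster 6 was set against cluster 13, the pair compared in the study, in a fit of the 4 sums alone. That fit left 1 residual degree of freedom. Its standard errors and p values thus rest largely on a spread borrowed across genes, and not on the spread of 2 mice. Hypoxia response genes were higher in cluster 6 for 6 of 16 and lower for 1, and glycolysis genes higher for 3 of 16 and lower for 1, where 16.3% of all genes tested were higher and 12.1% lower. The median log2 fold change was 0.52 for hypoxia response, -0.17 for glycolysis and 0.01 for all genes. P4ha1 and Car12 differed most among hypoxia response genes, with 60.4 and 69.8 CPM in cluster 6 against 8.20 and 17 in cluster 13 (log2 fold change 2.26, SE 0.35, adjusted p = 3.2e-06) and 46.6 and 60.4 against 8.20 and 15.7 CPM (log2 fold change 2.06, SE 0.35, adjusted p = 1.8e-05). Car9, Vegfa, Adm and Ddit4 were the others higher in cluster 6, with log2 fold changes of 1.81 (SE 0.39, adjusted p = 0.00037), 1.54 (SE 0.24, adjusted p = 4.8e-06), 1.54 (SE 0.31, adjusted p = 0.00018) and 1.01 (SE 0.28, adjusted p = 0.006). In each of these 6 genes both values of cluster 6 lay above both of cluster 13. Bnip3l was lower in cluster 6, at 68 and 92.4 against 134 and 161 CPM. Of the glycolysis genes, Slc2a1, Pfkp and Aldoc were higher in cluster 6, with log2 fold changes of 1.02 (SE 0.25, adjusted p = 0.0015), 1.42 (SE 0.29, adjusted p = 0.00017) and 0.95 (SE 0.26, adjusted p = 0.0048), and Tpi1 was lower. For Aldoc the clusters overlapped across mice, at 259 and 85.5 against 112 and 47.6 CPM, while within each mouse cluster 6 was higher. The regulator Pfkfb3 was lower in cluster 6, with 29 and 35.2 CPM against 67.2 and 132 (log2 fold change -1.65, SE 0.29, adjusted p = 3.2e-05). P4ha2, high in both clusters, gave a log2 fold change of 0.20 (SE 0.32), and Ndrg1 a value of 0.44 (SE 0.24), neither called.

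All 12 calls kept their sign and stayed below the threshold without the cells that held transcripts of other cell types. Vegfa then had a log2 fold change of 1.66. Cluster 13 lost no cells in that fit. Its fibroblast markers summed to 39.4 and 324 CPM and its pericyte markers to 55.8 and 53.8 CPM, and their part in these calls was not tested. With 1 of the 4 sums left out, the fit had no mouse block and few calls stayed: Vegfa was called in 3 of the 4 such fits, P4ha1 and Pfkp in 2, Adm, Car9, Car12 and Pfkfb3 in 1, and Slc2a1, Aldoc, Tpi1, Bnip3l and Ddit4 in none. Without the cluster 6 sum of mouse 2 edgeR called 0 of all genes, with 3053 at an unadjusted p under 0.05.

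**Figure D5:**
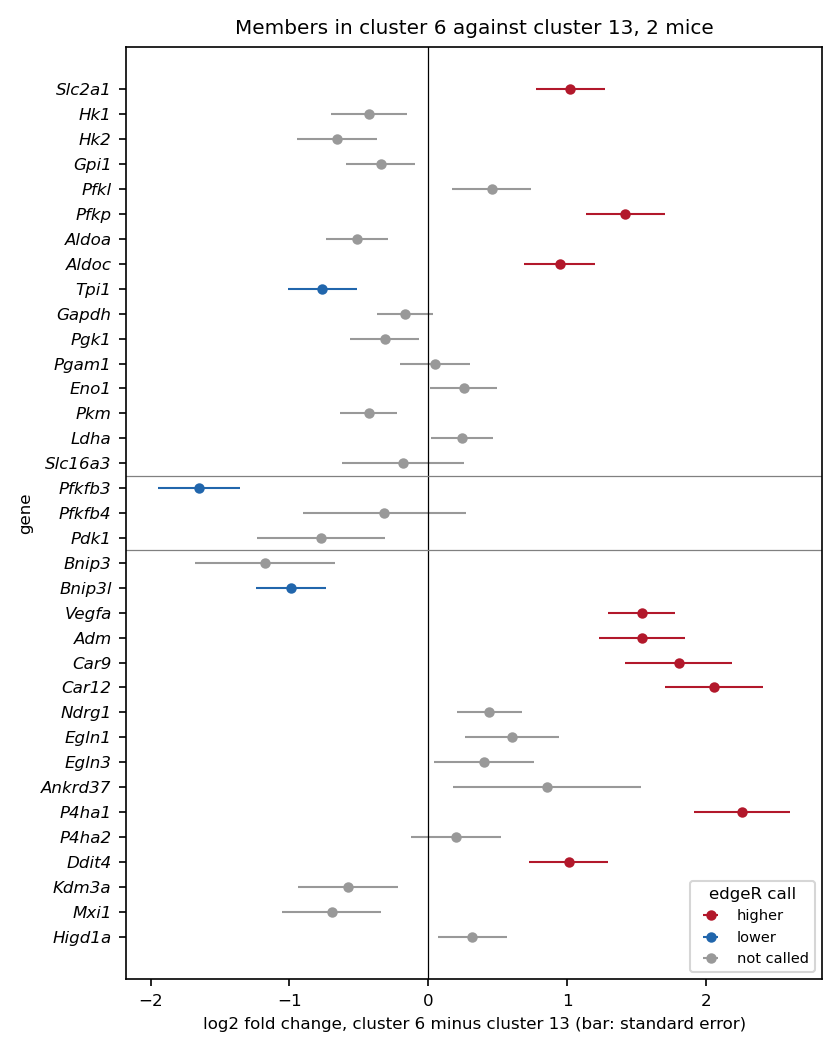
Log2 fold change of cluster 6 over cluster 13 for the 35 genes (points) with its standard error (bars), from edgeR on the 4 sums; red genes were called higher, blue lower and grey were not called. P4ha1 and Car12 lie farthest to the right and Pfkfb3 farthest to the left.

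Other genes of the pathways were counted in the same fits. Of 27 further HIF targets, 26 were tested. In cluster 6, 13 were higher and 1 lower, the most of any cluster, and Lox, Loxl2 and Stc2 were among the rises, with 31.1 and 69.2 CPM of Lox, 20.5 and 50.9 of Loxl2 and 18.8 and 14.5 of Stc2. Lox and Loxl2 cross-link collagen and are also known from fibroblasts, whose markers lay in this cluster, and their part in these levels was not tested. In cluster 1, 7 were higher and 3 lower, in cluster 8, 6 were higher and 4 lower, and in cluster 14, 4 were higher and 1 lower. Of all genes tested, 16.2% were higher and 8.48% lower in cluster 6, and 27.7% and 18.2% in cluster 1. The shares were 18.2% and 13.9% in cluster 8 and 11% and 7.89% in cluster 14. For these targets the counts of clusters 1, 8 and 14 lay near those shares, which also stand beside the counts of the lists below. Cluster 14 raised Mif, Fam162a and Ak4 and lowered Hilpda, a lipid droplet protein (14.8 and 5.97 CPM), while cluster 7 raised Hilpda to 141 and 262 CPM. Cluster 13 raised Stc2, a secreted glycoprotein (139 and 212 CPM), and Angptl4, which inhibits lipoprotein lipase (50.8 and 69.1 CPM). Of 13 genes of the HIF machinery, 11 were tested. Hif1a, the alpha subunit of the general factor, was called higher in cluster 6 (109 and 204 CPM) and cluster 13 (106 and 224 CPM). Epas1, the alpha subunit also called HIF2A, was called higher in cluster 6 (32.3 and 67.9 CPM) and cluster 1 (54.1 and 49.4 CPM). Endothelial markers summed to 28.1 and 419 CPM in cluster 6, and the part of other cell types in its Epas1 level was not tested. In cluster 8, 5 of these 11 machinery genes were higher and 0 lower, and in cluster 14, 4 were higher and 0 lower. Rbx1 and Elob, parts of the Vhl ubiquitin ligase, were among the rises. Of 23 other genes of glycolysis and pyruvate use, 15 were tested. In cluster 8, 4 were higher and 2 lower, with Mpc2 of the mitochondrial pyruvate carrier among the rises in clusters 8 (510.4 and 399.6 CPM) and 14 (417 and 472 CPM). In cluster 1, 2 were higher and 5 lower, with Ldhb, the lactate dehydrogenase form that favours pyruvate, at 19.8 and 35.7 CPM. Of 10 genes of the integrated stress response, which Ddit4 also joins, 9 were tested. In cluster 1, 3 were higher (Sesn2, Ppp1r15a and Ddit3) and 1 lower, where 27.7% of all genes tested were higher and 18.2% lower.

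The spread over cells was also measured. After each cell was thinned to 2000 UMIs, UMIs of at least 3 of the 16 hypoxia response genes were found in 19.7% (18.3 to 21%) of cells in mouse 1 and 16% (14.9 to 17.1%) in mouse 2 (exact 95% intervals by the method of Clopper and Pearson, for counting error alone). In cluster 6 the shares were 30.2% (24.5 to 36.4%) and 30.6% (23.5 to 38.4%), and in cluster 1 they were 23.4% (14.5 to 34.4%) and 27.6% (18 to 39.1%) of the few cells deep enough. In cluster 7 they were 28.9% (23.9 to 34.2%) and 15.3% (8.40 to 24.7%), higher in mouse 1. The difference between the mice was not tested. Cluster 16 was the lowest in mouse 1, at 2.94% (0.0744 to 15.3%), and held 8.53% (4.33 to 14.7%) in mouse 2. In cluster 8 the shares were 13.9% (8.99 to 20.1%) and 15.8% (11.2 to 21.2%). Without thinning, 79.5% and 70.1% of all cells passed, where deeper cells have more chances to pass. The share that free RNA alone gives was not measured here.

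As a description of how alike the mice were, the median Spearman correlation between the mice over clusters was 0.71 for glycolysis, 0.74 for the regulators and 0.70 for hypoxia response, and 0.54 for all 12566 genes with at least 100 UMIs. For 21 of the 35 genes the same cluster was highest in each mouse. By the mean of the mice, cluster 14 was highest for 10 genes, cluster 1 for 7, cluster 7 for 5 and cluster 6 for 4.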

How the data were processed

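Cells of 2 mice were measured by droplet RNA sequencing of 3' ends. The authors deposited whole-number counts of UMIs per gene and cell barcode, made with Cell Ranger 6.0.1 on mm10, and an annotation of cells with their cluster and the mitochondrial fraction of their UMIs. Cell Ranger 6.0.1, Seurat 4.0.3 and mm10 are named in the submitters' processing notes. Before deposit the authors removed low-count cells, mitochondrial outliers, scDblFinder doublets and immune clusters, then integrated and clustered the cells in Seurat. The annotation's clusters were used as given and no further doublet step was run.

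The matrices held 6175 barcodes with 63140346 UMIs in mouse 1 and 7538 with 61529883 in mouse 2. UMIs of annotated cells were summed per mouse and cluster (36 sums), genes were kept by filterByExpr and scaled by TMM, and edgeR 4.0.16 (limma 3.58.1, R 4.3.3) fitted its quasi-likelihood test with Benjamini-Hochberg adjustment over all genes tested, at a threshold of 0.05. One fit held all 18 clusters (11603 genes), and a second only clusters 6 and 13 (4 sums, 9794 genes). They left 17 and 1 residual degrees of freedom. In the first, all clusters shared the spread of a gene, and both fits also drew on the spread of other genes. The mouse was a block, since sums of 1 mouse come from the same animal. The correlation of the mouse 1 minus mouse 2 difference across genes between 153 pairs of clusters ran from -0.0197 to 0.656 with a median of 0.146, and was 0.139 for clusters 6 and 13. For symbols with more than 1 gene ID, the ID with most UMIs was used (for Aldoa the other ID held 1 and 5 UMIs). For the detection shares each cell was thinned to 2000 UMIs with seed 1, and shallower cells were left out. Intervals and limits of detection cover counting error only.

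On simulated counts for clusters 6 and 13, edgeR called 23 of 100 genes changed 2-fold, 84 of 100 changed 4-fold and 4 unchanged genes of 9819. For cluster 6 against the mean of the others it called 56 and 92 of 100 and 10 unchanged genes of 10187. The simulated sums shared a gene profile and a fixed dispersion, with no difference between mice and few changed genes. The real sums differ in these points, so these counts may not hold for them. DESeq2 1.42.0 was an alternative test. The others were no low-count filter, no block, thinned cells, no mitochondrially encoded genes, no cells with transcripts of other cell types, no clusters 1 and 5, another reference for each cluster, the spread from all sums, and each sum left out.

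All 35 members are reported. Sequences were printed for the 5 members with a RefSeq window called in most contrasts with 1 sign in each mouse. From the other lists, the genes named are among those with the largest changes of the same sign in each mouse, or parts of the HIF dimer and its ligase. The members and lists were chosen with earlier results of these data known. Columns of signature scores and a list of gene names were not used. Python 3.11.15, NumPy 2.4.6, pandas 2.3.3, SciPy 1.17.1 and matplotlib 3.10.9 were used for sums, shares and plots.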

Additional observations from a re-analysis of the deposited data

Results flagged for a closer look

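Barcodes that the matrices held but the annotation did not were used in no comparison. They numbered 2346 in mouse 1 and 2208 in mouse 2, and mitochondrial transcripts took 56.7% and 38.6% of their UMIs. Among their UMIs from nuclear genes, the hypoxia response genes summed to 1214 CPM in mouse 1 and 1135 CPM in mouse 2, above the median annotated cluster on the same scale (1021 and 968 CPM). The glycolysis genes summed to 4562 and 4463 CPM, below the median annotated cluster (5460.3 and 4887 CPM). The differences were not tested.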

How the results depend on the processing

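Between clusters 6 and 13, the counts of 3 glycolysis genes higher, 1 lower, 6 hypoxia response genes higher and 1 lower became 0 to 1, 0 to 0, 0 to 5 and 0 to 1 with 1 of the 4 sums left out, in fits without a block that assume the lone sum to vary like the other group. Over all genes these fits called 714, 1281, 0 and 1387 genes in place of 2782, and the 0 came without cluster 6 of mouse 2 (edgeR, 3053 genes at an unadjusted p under 0.05). The glycolysis gene lower was 0 by DESeq2, 0 with thinned cells and 2 without cells with transcripts of other cell types. The hypoxia response gene lower was 0 by DESeq2, 0 with thinned cells, 2 without the low-count filter, 2 without cells with transcripts of other cell types and 2 with the spread from all 36 sums.

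Without the replicate block, the comparison of clusters 6 and 13 gave 2 glycolysis genes higher and 0 lower, 5 hypoxia response genes higher and 1 lower, and 1996 genes in all. Over the 18 clusters the fit without the block gave 19 hypoxia response calls lower in place of 32, and 141 of the 184 calls stayed.

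Of the 46 glycolysis calls higher and 43 lower over the 18 clusters, against all other cells summed there were 29 and 71, and of 32 hypoxia response calls lower there were 52. With thinned cells the last count was 9. With a cluster's own sum of 1 mouse left out, glycolysis calls lower ranged from 17 to 23, hypoxia response calls higher from 28 to 31 in place of 51, and lower from 11 to 18. DESeq2 kept 181 of the 184 calls over the 18 clusters. With thinned cells 104 stayed, 62 kept their sign but lost the call and 2 changed sign. Apart from left-out sums there were 8 settings, and 80 of the 184 calls stayed in every one that tested them. Between clusters 6 and 13 DESeq2 kept 7 of 12, losing Car9, Ddit4, Aldoc, Tpi1 and Bnip3l, and called 997 genes in all. The sign turned for Bnip3l in cluster 1 (0.037) and Kdm3a in cluster 17 (0.036) with thinned cells, for Ankrd37 in cluster 6 (-0.41) without cells with transcripts of other cell types, for Adm in cluster 10 (-0.18 without mouse 1, 2.35 without mouse 2) and for Bnip3 in cluster 13 (-0.93 without mouse 2, 2.24 without mouse 1). The cause was not tested.

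Without Gapdh the glycolysis sum over the median cluster was 1.86 in cluster 8 and 2.06 in cluster 14, in place of 2.30 and 2.69. Without Ndrg1 the hypoxia response sum over the median was 1.60 in cluster 6, 0.975 in cluster 8 and 1.20 in cluster 14, in place of 1.51, 0.773 and 1.02. With thinned cells it was 1.53 in cluster 6 and 0.867 in cluster 8. With 2 mice, leaving out a sum rests on 1 animal for that cluster, and the shallow sums of clusters 1, 5 and 14 limit what could be detected there.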

Other observations

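Genes of the early response and the heat shock response, which include targets of stresses other than a lack of oxygen, were counted in the same edgeR fits. In cluster 9 all 12 were higher, with the transcription factor genes Fos and Egr1 at log2 fold changes of 5.11 and 3.96 and the chaperone gene Hspa1a at 4.18, where 9.56% of all genes tested were higher. In cluster 12, 8 were higher and 1 lower, led by Hspa1a (4.22) and Hspa1b (3.77), where 8.13% of all genes were higher. The integrated stress response genes Atf4, Ddit3, Sesn2 and Ppp1r15a rose in clusters 9, 10 and 12. Their list summed to 1035 and 600.1 CPM in cluster 10, 850.3 and 788 CPM in cluster 9, and 553 and 609 CPM in cluster 12, with a median over clusters of 504 and 409 CPM. In clusters 8 and 14, by contrast, 7 and 5 of the 12 genes of this first list fell and 0 rose. Of all genes tested, 13.9% and 7.89% were lower there and 18.2% and 11% higher. The genes of that list named here were chosen after their values were seen.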
